A study of Mus musculus with 6 samples.

Results

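Protocadherin genes were examined in hippocampal RNA of male mice on a C57BL/6J strain background at postnatal day 56, with 3 wild-type samples and 3 samples in which Trpc4 is deleted. Trpc4 encodes a receptor-operated cation channel. The labels give Trpc4 as the single altered gene and do not say how the allele was made, in which cells it acts or how the wild-type mice were bred. Each sample was hybridised to its own Affymetrix expression array and has a log2 signal for every probe set. A gene was a member if its symbol begins with Pcdh and a probe set names that gene alone, and the probe set with the highest mean over the 6 arrays stood for it. This gave 35 members of 22180 genes measured in this way: 22 Pcdhb genes, 1 Pcdhg gene (Pcdhga10), 12 non-clustered genes and 0 Pcdha genes.

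Protocadherins are the largest branch of the cadherin superfamily, calcium-dependent adhesion proteins of the cell surface. The clustered genes lie in the alpha, beta and gamma arrays on mouse chromosome 18, and a neuron switches on a small, largely random set of their promoters through looping by the DNA-binding protein CTCF and cohesin. Their proteins bind the same isoform on a facing membrane, which lets a neuron tell its own branches from those of its neighbours and shapes dendrites, axons and synapses. Non-clustered protocadherins are expressed in regional patterns and are known for roles in axon growth, synapse formation and synapse removal. In bulk tissue such as this, a change in the number of cells that express a gene and a change in RNA per cell cannot be told apart.

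Not every family member could be read singly on this array. The reference gene table lists 14 Pcdha, 22 Pcdhb, 22 Pcdhg and 12 non-clustered genes, 1 of the Pcdhg genes being a pseudogene. All Pcdhb and all non-clustered genes had a probe set of their own. Of the alpha genes, 9 were named only in a probe set shared by several genes and 5 were named in none. Of the gamma genes, 9 were named only in a shared probe set and 12 in none. The Pcdhb genes are close relatives of each other, and probe sequences were not used here, so how far a Pcdhb probe set also reads its neighbours was not tested.

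The deposited signals were even across arrays and the targeted gene was lower in the knockout. Array medians lay between 4.73 and 4.75, and Pearson's r between any pair of arrays, across probe sets, was 0.985 to 0.988. The submitters name RMA, which in general equalises the arrays, so these values do not measure the quality of RNA or arrays. Trpc4 fell from 8.12 ± 0.10 to 7.42 ± 0.12 (log2 signal, SD, n = 3 each), to 61.5% of the wild-type signal. The groups did not overlap, and the limma p was 8.87e-05 unadjusted and 0.738 adjusted over all genes. Which part of Trpc4 the probes read relative to the deletion is not given in the sources used here. Of the 13 hippocampal neuron markers measured, such as Prox1 and Zbtb20, 12 had wild-type signals above the median of all probe sets (4.74). Markers of oligodendrocytes and myelin were lower in knockout for 18 of 18 genes, with mean list levels of 7.84 to 7.90 in the wild-type samples and 7.19 to 7.75 in the knockout samples.

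In wild-type hippocampus 29 of the 35 protocadherin genes (82.9%) were on average brighter than the median probe set, against 58.2% of all genes tested. No signal was set against a measured background. Probes differ in how strongly they bind, so a level says how bright a probe set was and does not rank genes by transcript number. The 22 Pcdhb genes ranged from 3.14 (Pcdhb1) to 7.14 (Pcdhb17), with a median of 5.74, and 18 of them lay above the median of all probe sets. The 4 dimmer ones were Pcdhb1, Pcdhb5, Pcdhb9 and Pcdhb21. The 12 non-clustered genes ranged from 4.32 (Pcdh12) to 8.60 (Pcdh10), with a median of 7.78, and 10 lay above the median of all probe sets. Pcdh12 and Pcdh18 lay below it. Pcdhga10 had a signal of 7.49 ± 0.09 (SD, n = 3). The signal of Pcdhb17 was 7.20, 7.00 and 7.22 in wild-type replicates 1 to 3 and 7.25, 7.16 and 7.12 in knockout replicates 1 to 3, so the groups overlapped at the bright end of the beta array.

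**Figure D1:**
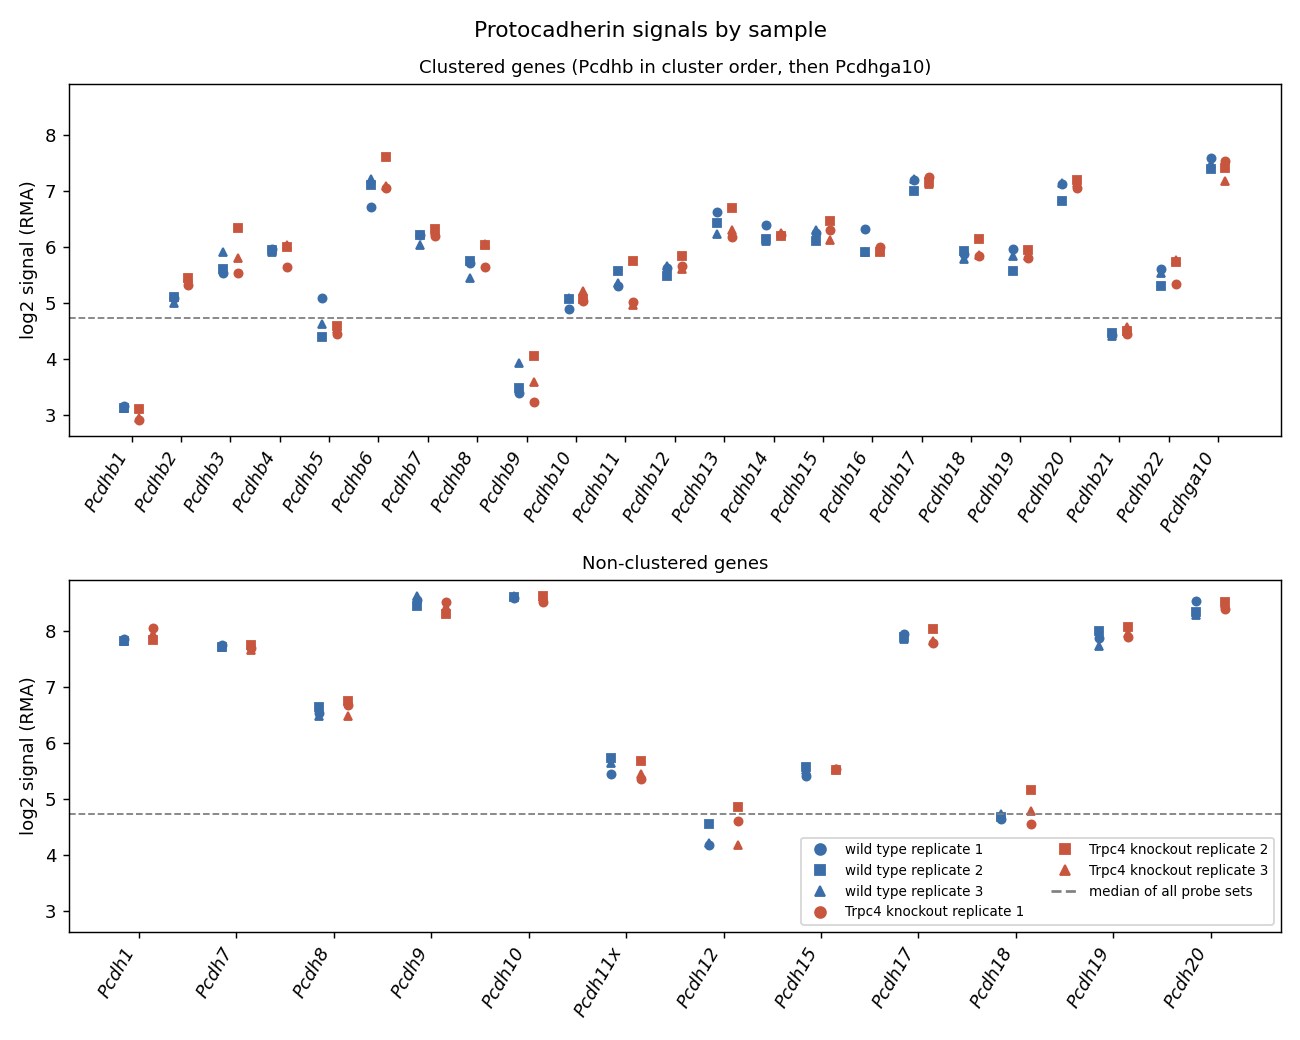
Log2 signal of each protocadherin gene in each of the 6 samples, wild type in blue and Trpc4 knockout in red, with 1 marker shape per replicate number. The dashed line is the median of all probe sets (4.74), and the points of both genotypes overlap for every gene except Pcdhb1 and Pcdhb2.

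Trpc4 deletion was compared with wild type by limma fitted over all 22180 genes, and every difference below is knockout minus wild type on the log2 scale. No protocadherin gene passed an adjusted p of 0.05, and the members' adjusted p ranged from 0.849 to 0.997. Over all genes the count was also 0, with 1276 genes at an unadjusted p under 0.05. At that unadjusted threshold 1 of the 35 members was called (2.86%), against 5.75% of all genes. The groups did not overlap for 2 members (5.71%), Pcdhb2 and Pcdhb1, against 10.9% of all genes (6.41% with knockout higher and 4.45% with knockout lower). Both shares were below those of all genes, but counts this small among 35 members lie near the background. The labels name replicates and do not state that they are separate animals, so a p-value here is set against variation among these 6 samples, some of which may be technical.

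The intervals limit the size of a change in array signal for most of the family. For 30 of the 35 genes (85.7%) the 95% interval of the difference lay within 1.5-fold in either direction, against 91.7% of all genes tested. The exceptions were Pcdhb3, Pcdhb6, Pcdhb8, Pcdhb11 and Pcdh12. For dim probe sets among the 30, such as those of Pcdhb1 and Pcdhb21, a narrow interval may not bound a change in RNA. Over the 35 genes the differences ran from -0.18 (Pcdhb5) to 0.34 (Pcdhb2) with a median of 0.08, and 23 were above 0. Over all genes tested the median was 0.01, and 54.9% of the differences were above 0.

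**Figure D2:**
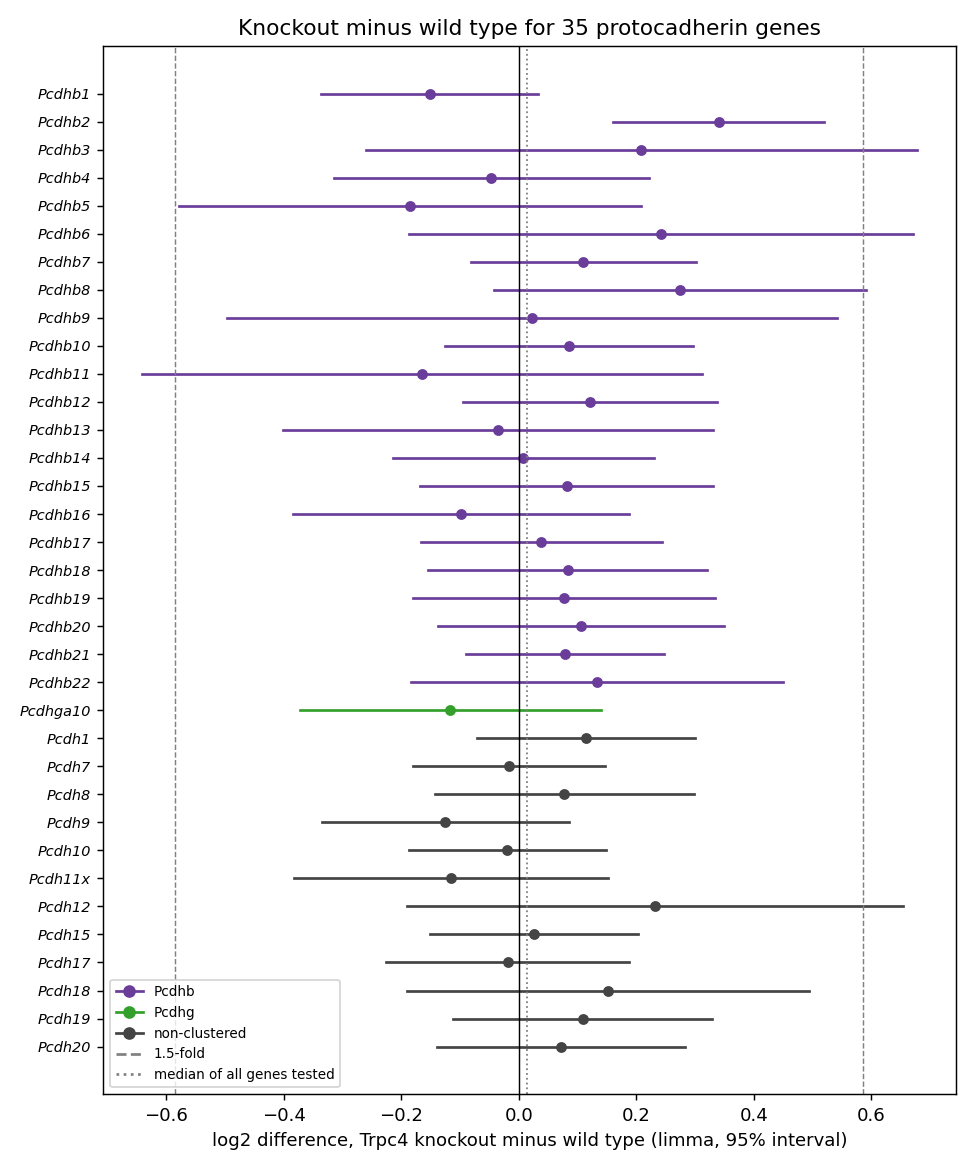
Log2 difference, knockout minus wild type, of each protocadherin gene with its 95% interval from the limma fit (points and bars), beta genes in purple, Pcdhga10 in green and non-clustered genes in grey. The interval of Pcdhb2, from 0.16 to 0.52, is the only one of the 35 that does not include 0.

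Pcdhb2, the beta gene with the lowest p, had signals of 5.09, 5.11 and 5.01 in wild-type replicates 1 to 3 and 5.32, 5.44 and 5.46 in knockout replicates 1 to 3. All 3 knockout samples lay above all 3 wild-type samples, and the gap between the groups was wider than the spread within either. This is a difference of 0.34 ± 0.08 (standard error), a 1.27-fold higher signal, with limma p-values of 0.0026 unadjusted and 0.849 adjusted. An exact permutation test (two-sided) gave p = 0.1, the lowest value this design allows with 3 samples a group. Groups without overlap fix that value, so it adds nothing to the lack of overlap, and Pcdhb1 had the same exact p of 0.1. In one direction, 3.16% of all genes had an unadjusted p under 0.05 and a higher signal in knockout. Leaving out single samples moved the difference of Pcdhb2 between 0.31 and 0.38.

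Pcdhb1, which opens the beta array, was the other gene without overlap. Its signals were 3.16, 3.14 and 3.13 in wild type and 2.92, 3.11 and 2.94 in knockout, replicates 1 to 3. The knockout samples lay lower, with knockout replicate 2 just below the wild-type samples, on the dimmest probe set of the family. The difference of -0.15 ± 0.08 (standard error) had limma p-values of 0.0953 unadjusted and 0.874 adjusted.

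Pcdhb8 had the second largest positive difference of the beta genes. Its signals were 5.72, 5.76 and 5.45 in wild type and 5.66, 6.04 and 6.06 in knockout. Knockout replicate 1 lay among the wild-type samples while the other knockout samples lay above them. The difference was 0.27 ± 0.14 (standard error), and it became 0.41 without knockout replicate 1, where the unadjusted limma p was 0.0110, and 0.18 without wild-type replicate 3. Pcdhb6 and Pcdhb3 had the next largest positive differences, 0.24 ± 0.18 and 0.21 ± 0.20. Pcdhb6 had signals of 6.71, 7.11 and 7.22 in wild type and 7.06, 7.61 and 7.09 in knockout, with wild-type replicate 1 lowest and knockout replicate 2 highest. Its difference became 0.06 without knockout replicate 2 and 0.09 without wild-type replicate 1. Pcdhb3 had signals of 5.54, 5.61 and 5.92 in wild type and 5.55, 6.34 and 5.81 in knockout. Knockout replicate 2 was again the highest, and the difference became -0.01 without it, 0.13 without wild-type replicate 1, 0.33 without wild-type replicate 3 and 0.38 without knockout replicate 1.

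The largest negative differences among the beta genes were those of Pcdhb5 and Pcdhb11. Pcdhb5 had signals of 5.10, 4.39 and 4.64 in wild type and 4.44, 4.59 and 4.54 in knockout, so that wild-type replicate 1 stood above the other 5 samples. Its difference of -0.18 ± 0.17 became 0.01 without that sample. Pcdhb11 had signals of 5.31, 5.58 and 5.36 in wild type and 5.03, 5.76 and 4.98 in knockout. Knockout replicate 2 was the highest of the 6 samples and the other 2 knockout samples were the lowest. The difference of -0.16 ± 0.20 became -0.42 without knockout replicate 2, with limma p-values of 0.00742 unadjusted and 0.916 adjusted. It shrank to -0.05 without knockout replicate 1 and to -0.03 without knockout replicate 3.

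The remaining beta genes differed by less. Pcdhb7, Pcdhb12, Pcdhb20 and Pcdhb22 differed by 0.11 to 0.13, and Pcdhb10, Pcdhb15, Pcdhb18, Pcdhb19 and Pcdhb21 by 0.08 or 0.09. Pcdhb17, Pcdhb9, Pcdhb14, Pcdhb13 and Pcdhb4 lay between -0.05 and 0.04, and Pcdhb16 differed by -0.10. None of these had an unadjusted p under 0.05 in the limma fit. Pcdhb21 was the steadiest beta gene, with a standard deviation within groups of 0.05, and Pcdhb9, a dim gene, the most variable at 0.36. The median standard deviation was 0.14 for the beta genes, 0.10 for the non-clustered genes and 0.12 for all genes tested.

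Across the beta array as a whole, 16 of 22 genes had positive differences, with a median of 0.08 (54.9% of differences positive and a median of 0.01 over all genes tested). The genes lie in the order of their numbers along the chromosome. The first 11 had a median difference of 0.09 with 7 positive, and the last 11 a median of 0.08 with 9 positive. The balance rested on single samples. It became 12 of 22 with a median of 0.03 without knockout replicate 2, 12 of 22 with a median of 0.01 without wild-type replicate 2, and 18 of 22 without knockout replicate 1 or wild-type replicate 1.

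**Figure D3:**
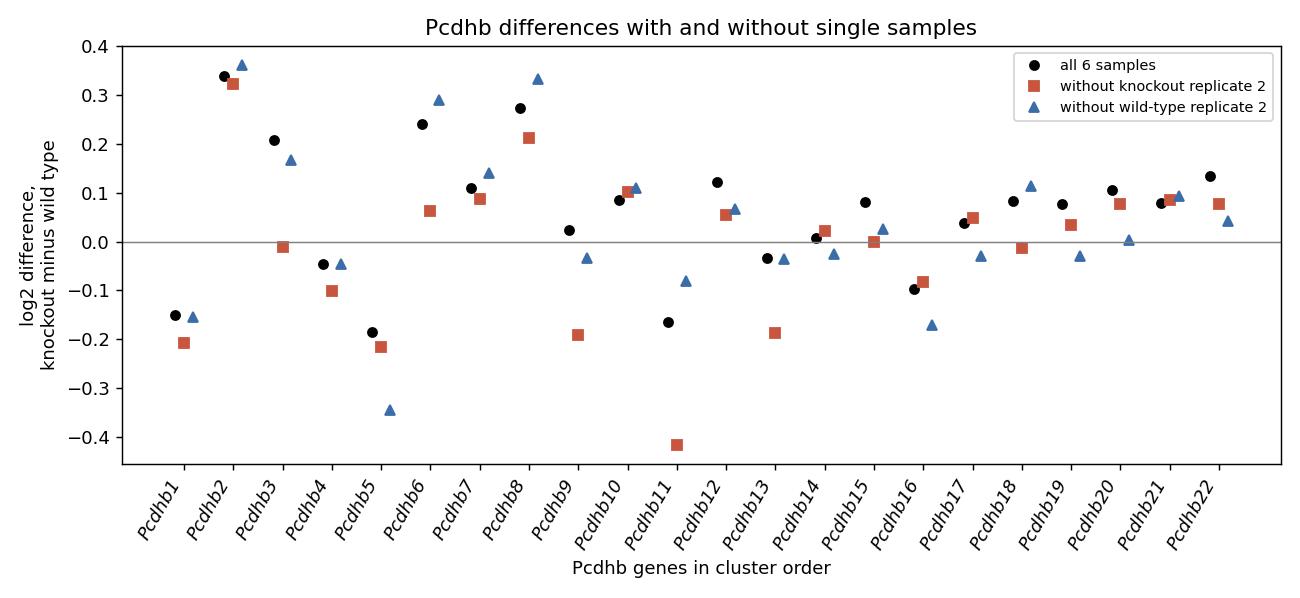
Log2 difference, knockout minus wild type, of the 22 beta genes in their order along the cluster, from all 6 samples (black), without knockout replicate 2 (red) and without wild-type replicate 2 (blue). Pcdhb2 stays between 0.32 and 0.36 in these fits, while Pcdhb3, Pcdhb9 and Pcdhb18 fall below 0 without knockout replicate 2.

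Knockout replicate 2 stood above the other samples for many protocadherins. It was the highest of the 6 samples for 10 of 22 beta genes and the lowest for 0, where it was the highest for 18.7% of all genes tested. It was also the highest for 6 of 12 non-clustered genes. The median deviation from each gene's own mean was 0.15 in this sample for the beta genes and 0.11 for the non-clustered genes, against 0.01 for all genes tested. Wild-type replicate 2 was the lowest sample for 8 beta genes and the highest for 0, with a median deviation of -0.08. Over all genes tested it was the lowest for 16.7% and the highest for 15.3%. Wild-type replicate 3 was likewise the highest for 0 beta genes, and the lowest for 6. Apart from knockout replicate 2 and wild-type replicate 2, the beta median of each sample lay between -0.05 and 0.01. By the mean deviation, knockout replicate 1 was the lowest for the beta genes, at -0.095 against -0.079 in wild-type replicate 2. Knockout replicate 1 was the lowest sample for 4 beta genes. The myelin marker list, the mean deviation of its 18 genes, was lowest in knockout replicate 2, at -0.49, against -0.18 in knockout replicate 1 and 0.08 in knockout replicate 3. The hippocampal neuron list stood at 0.06, -0.04 and -0.13 in wild-type replicates 1 to 3 and at 0.01, 0.07 and 0.03 in knockout replicates 1 to 3. It was higher in knockout for 10 of 13 genes, against 54.9% of all genes tested, with a median difference of 0.07. Its gene with the lowest p, Wfs1, went the other way, at -0.25 without overlap (limma p 0.0168 unadjusted, 0.849 adjusted). The list was lowest in wild-type replicate 3, where the beta median was 0.01, while the beta median was lowest in wild-type replicate 2. Other lists also leaned lower in knockout, interneurons for 12 of 15 genes (median -0.08) and choroid plexus for 7 of 8 (median -0.16). The astrocyte and microglia lists each had a median of -0.01. The part of cell composition in the beta signals was not tested.

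**Figure D4:**
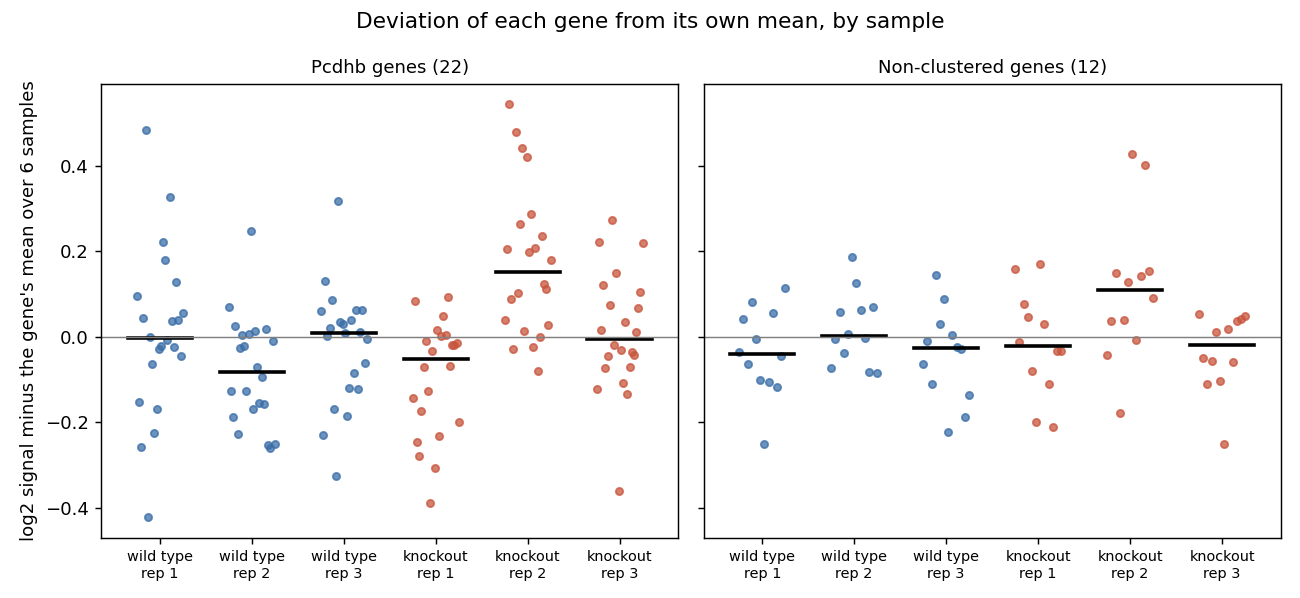
Log2 signal of each gene minus its mean over the 6 samples, by sample, for the 22 beta genes (left) and the 12 non-clustered genes (right), with 1 point per gene and a bar at the median. The bars of knockout replicate 2 lie at 0.15 and 0.11, and all other bars lie between -0.08 and 0.01.

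The gamma and alpha arrays were read mainly by shared probe sets. Pcdhga10, the gamma gene with its own probe set, had signals of 7.59, 7.40 and 7.49 in wild type and 7.54, 7.41 and 7.17 in knockout. Knockout replicate 3 was the lowest sample and the other 2 lay within the wild-type range, with a difference of -0.12 ± 0.11 (standard error). A probe set naming Pcdhga10 together with a predicted gene was brighter, with 9.62 ± 0.17 for wild type against 9.54 ± 0.11 for knockout (SD, n = 3 each), and its difference of -0.08 had the same sign. A probe set naming 9 gamma genes, Pcdhgc3, Pcdhgc4 and Pcdhgc5 among them, had signals of 5.51, 5.23 and 4.85 in wild type and 4.82, 5.01 and 4.87 in knockout. Wild-type replicates 1 and 2 were the highest samples and wild-type replicate 3 lay among the knockout samples, for a difference of -0.30 with an interval of -0.67 to 0.07. A probe set naming 9 alpha genes, Pcdhac1 and Pcdhac2 among them, had signals of 5.14, 5.32 and 5.58 in wild type and 5.47, 5.53 and 5.59 in knockout. These groups overlapped as well, with a difference of 0.18 and an interval of -0.09 to 0.46. A shared probe set gives 1 sum for its genes and does not show which of them is expressed.

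Among the non-clustered genes 7 of 12 differences were positive, with a median of 0.05, and 0 of 12 had an unadjusted limma p under 0.05. The subgroup with a longer extracellular part and a binding motif for protein phosphatase holds Pcdh1, Pcdh7, Pcdh9 and Pcdh11x. Pcdh9 had signals of 8.56, 8.44 and 8.62 in wild type and 8.53, 8.30 and 8.42 in knockout, and its difference was -0.12 ± 0.09 (standard error). Its lowest value was in knockout replicate 2, the sample with the lowest myelin list. Knockout replicates 1 and 3 were in opposite order, with 8.53 and 8.42 for Pcdh9 and -0.18 and 0.08 for the list. What part oligodendrocyte content has in the Pcdh9 signal was not tested. The X-linked gene Pcdh11x had signals of 5.45, 5.74 and 5.64 in wild type and 5.36, 5.68 and 5.45 in knockout, which overlapped, and differed by -0.12 ± 0.12. Pcdh1, an adhesion gene also known from airway epithelium, differed by 0.11 ± 0.08. Its wild-type signals lay within 7.82 to 7.85, and those of the knockout at 8.05, 7.85 and 7.94, with knockout replicate 2 inside the wild-type range. Pcdh7 was the steadiest of all members, at 7.73 ± 0.03 and 7.71 ± 0.04 (SD, n = 3 each), with an interval of the difference from -0.18 to 0.15.

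The subgroup that binds the WAVE actin regulator or is grouped with its members holds Pcdh8, Pcdh10, Pcdh17, Pcdh18 and Pcdh19. Pcdh8, which neurons induce on activity and which acts on the removal of N-cadherin from synapses, stood at 6.56 ± 0.09 in wild-type and 6.63 ± 0.13 in knockout samples (SD, n = 3 each). Pcdh17, known for presynaptic assembly, differed by -0.02 (interval -0.23 to 0.19). Pcdh19, an X-linked gene mutated in an epilepsy of girls, differed by 0.11 (interval -0.11 to 0.33).

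Pcdh10 and Pcdh18 lie on chromosome 3, as does Trpc4, and are given in full because DNA of a targeted strain can remain beside a knockout allele. Pcdh10, which acts in activity-driven synapse elimination, had signals of 8.59, 8.60 and 8.62 in wild type and 8.51, 8.63 and 8.61 in knockout. The groups overlapped, and the difference of -0.02 had an interval of -0.19 to 0.15. A probe set naming Pcdh10 with a further transcript differed by 0.14 (interval -0.17 to 0.45). Pcdh18 had signals of 4.64, 4.68 and 4.73 in wild type and 4.55, 5.16 and 4.80 in knockout. Knockout replicate 2 stood highest, and the difference of 0.15 became -0.01 without it. Of the 20 protein-coding genes between Pcdh10 and Trpc4 in the reference order, all 20 were measured and 0 had an unadjusted limma p under 0.05, where 5.75% of all genes did, so a count of 0 among so few genes lies near the background.

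The last 3 non-clustered genes belong to neither subgroup. Pcdh12, an adhesion gene of endothelial cells, had the largest non-clustered difference, 0.23 ± 0.18 (standard error), on a dim probe set. Its signals were 4.19, 4.56 and 4.21 in wild type and 4.61, 4.86 and 4.19 in knockout. Knockout replicates 1 and 2 were the highest and knockout replicate 3 was level with wild type, and the difference depended on them. Leaving out knockout replicate 3 gave 0.41 (unadjusted limma p 0.0277), while leaving out knockout replicate 2 gave 0.08. In the endothelial and mural marker list 10 of 13 genes were lower in knockout, with a median difference of -0.06. The list levels overlapped, at 6.24 to 6.41 in wild type and 6.23 to 6.27 in knockout. The part of vessel content in the Pcdh12 signal was not tested. Pcdh15, part of the tip link of inner ear hair cells, differed by 0.03, and by -0.09 in its second and dimmer probe set, with both intervals including 0. Pcdh20 stood at 8.39 ± 0.13 in wild-type and 8.46 ± 0.06 in knockout samples (SD, n = 3 each).

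Genes that act with protocadherins were read from lists drawn up from general knowledge. Of 23 measured genes for CTCF, cohesin and the chromatin regulators of the clusters, 0 had an unadjusted limma p under 0.05, with 14 higher in knockout and a median difference of 0.02. Of 6 genes for ADAM10 and gamma-secretase, which cut protocadherins at the membrane, 0 did, with a median of -0.04. Over all genes tested the median was 0.01 and 5.75% had an unadjusted p under 0.05, so counts of 0 in lists of this size lie near the background.

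Cadherin relatives and catenins together held 3 genes at an unadjusted limma p under 0.05, all lower in knockout. They made up 9.09% of the 22 classical and related cadherins, 11.1% of the 9 catenins and 0 of the 17 other superfamily genes. Over all genes the share was 5.75% in either direction, so counts this small lie near the background. Of 22 classical and related cadherins 2 were lower, Cdh19 and Cdh7, and the list had a median of -0.0039 (2.59% of all genes were lower at this threshold). Cdh19, known from the Schwann cell lineage, was 5.12, 5.37 and 5.27 in wild type and 5.07, 4.71 and 4.78 in knockout, with no overlap and a difference of -0.40 ± 0.12 (standard error). Cdh7 differed by -0.22 ± 0.08. Its unadjusted limma p rose above 0.05 with trend and robust variance (0.0596). It also did when single samples were left out, to 0.0939 for wild-type replicate 3, 0.0677 for knockout replicate 1 and 0.0889 for knockout replicate 2. Of 9 catenins, which link classical cadherins to actin, 1 was lower, the alpha-catenin gene Ctnna3 known from heart muscle, at -0.47 ± 0.14. Ctnna3 stood at 4.23, 4.08 and 4.55 in knockout replicates 1 to 3, and the 18 genes of the myelin list, 14 of them lower at an unadjusted p under 0.05, had mean deviations of -0.18, -0.49 and 0.08 there. Cdh19, Cdh7 and Ctnna3 were all lowest in knockout replicate 2, as was the myelin list. Of knockout replicates 1 and 3, Cdh7, Ctnna3 and the myelin list were lower in replicate 1. Cdh19 was lower in replicate 3, at 4.78 against 5.07. The part of oligodendrocyte content in these 3 genes was not tested. The adjusted p of these 3 genes was 0.849 to 0.853. Of 17 other superfamily genes, the Fat, Dachsous, Celsr and calsyntenin genes among them, 0 had an unadjusted p under 0.05, with 14 higher and a median of 0.06.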

How the data were processed

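Total RNA was extracted with Trizol and labelled as sense cDNA, per the labels' protocols. The authors deposited log2 values of 41345 probe sets in a single table, and the submitters' processing notes name RMA and Affymetrix Power Tools. Neither a version nor a genome build is given in the sources used here. RMA in general equalises the arrays, which hides any change common to most genes, and the number of arrays limits the precision. A platform annotation table named 1 gene for 23521 probe sets, several for 1814 and none for 16010. Gene order came from a RefSeq table of GRCm38.p6.

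The genotypes were compared by limma 3.58.1 in R 4.3.3 (lmFit, eBayes, genotype only, Benjamini-Hochberg over 22180 genes), checked on simulated data. Standard errors and 95% intervals are limma's. Figures used matplotlib 3.10.9. The text names each member, gives sample values for the largest differences in each subfamily, the brightest and dimmest genes and those on chromosome 3, and gives differences of list genes only among the 3 smallest p. Sample values of Pcdh1, Pcdhb3 and Pcdhb6 were added after they were seen, and other list genes are named as examples. Members and lists were chosen with earlier results of these data known. The alternatives changed the scaling between arrays (quantile, median), the model (replicate block, array weights, trend with robust variance), the probe sets (dim ones left out, a gene's probe sets averaged, shared ones added), the p threshold, and the samples (each left out in turn).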

Additional observations from a re-analysis of the deposited data

How the results depend on the processing

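No protocadherin passed an adjusted p of 0.05 under any alternative run. Over all genes that count was 1 with trend and robust variance (Trpc4) and 0 to 1 without single samples. The count of members at an unadjusted p under 0.05 was 1 to 3 without single samples, with Pcdhb2 among them each time: 2 without knockout replicate 1 (with Pcdhb8), 3 without knockout replicate 2 (with Pcdhb1 and Pcdhb11) and 2 without knockout replicate 3 (with Pcdh12). At an unadjusted p of 0.01 the 1276 genes became 248. The median of the beta genes was 0.01 to 0.11 and that of the non-clustered genes 0.01 to 0.06 without single samples, and quantile normalization or median centring moved them by less than the spread between samples. Beta genes brighter in both groups than the median probe set, chosen after seeing the data, had a median of 0.08. The labels do not say whether replicate numbers pair the samples. Deviations of samples with the same number correlated at 0.07, 0.03 and -0.0038 over all genes, which with 3 samples a group cannot settle it. The limma fit with a replicate block called 1 member and 1316 genes at an unadjusted p under 0.05.

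Of 35 members, 19 kept their sign under every alternative run. The sign turned for Pcdh15 with the mean of its probe sets (-0.033) and for Pcdhb14 with quantile normalization (-0.0026). It turned when single samples were left out for 16 genes, whose ranges were -0.043 to 0.016 for Pcdh10, -0.019 to 0.064 for Pcdh15, -0.095 to 0.032 for Pcdh17, -0.010 to 0.30 for Pcdh18, -0.039 to 0.0037 for Pcdh7, -0.19 to 0.072 for Pcdhb13, -0.050 to 0.099 for Pcdhb14, -0.0018 to 0.17 for Pcdhb15, -0.17 to 0.040 for Pcdhb16, -0.031 to 0.079 for Pcdhb17, -0.014 to 0.14 for Pcdhb18, -0.030 to 0.16 for Pcdhb19, -0.011 to 0.38 for Pcdhb3, -0.12 to 0.081 for Pcdhb4, -0.35 to 0.011 for Pcdhb5 and -0.19 to 0.22 for Pcdhb9. For these the cause was not tested beyond the sample left out. A median for the alpha genes could not be given, since none has a probe set of its own. Dim genes such as Pcdhb1 and Pcdhb9 were not set against a measured background.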
